A study of Mus musculus with 15 samples.

Results

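The solute carrier (SLC) genes are described here in mouse olfactory epithelium after removal of the olfactory bulbs. They were taken by symbol: every probe set of the Affymetrix MG_U74Av2 GeneChip annotated to 1 gene whose symbol begins with Slc and a digit, with Slc8a1 left out. The array held 182 such probe sets for 150 genes. A gene counted as measured where a probe set had a present call on 3 or more of the 15 arrays, which left 97 genes of the 5740 measured genes in all, and the brightest probe set stood for the gene. The other 53 genes were not tested: 48 of them were called present on 0 arrays, 4 on 1 array and 1 on 2 arrays. Of the 97 genes, 70 were called present on all 15 arrays and 12 on fewer than 8. Neither Slc9a3r1, a scaffold protein, nor Slc4a1ap, an adaptor protein, is itself a carrier, although both carry the symbol and are counted.

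Bilateral olfactory bulbectomy (OBX) removes the target of the axons of the olfactory sensory neurons, and the mature neurons of the epithelium then die and are replaced from dividing basal cells. The 5 groups were untreated mice, mice 5 days after sham surgery, and mice 1, 5 and 7 days after OBX, all male C57Bl/6 animals of 6 weeks with no transgene or drug named in the labels. Each group had 3 arrays, and each array carried 1 pool of RNA from 3 mice, 5 µg from each. The tissue was whole olfactory epithelium, so fewer cells of a type and less RNA per cell cannot be told apart. A pool averages its mice, and p-values measure the spread between pools, with 1 variance per probe set shared by all 5 groups.

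Solute carriers are membrane proteins that move ions, sugars, amino acids, vitamins, metals and metabolites across cell and organelle membranes, either down a gradient or coupled to the gradient of another ion. In the olfactory epithelium, sustentacular cells and glands regulate the ions and nutrients around the neurons, and the sensory neurons use a high internal chloride level, loaded by the Slc12a2 cotransporter, to amplify the odour response. Macrophages, which clear dying neurons, carry their own metal exporters such as Slc11a1.

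The arrays were scaled to a common mean, with a detection share of 49.1% to 58.8% per array. Correlations between arrays of a group were at least 0.965 in every group but OBX day 5, where they ran from 0.914 to 0.970. The median SD of log2 signal within a group was 0.278 at OBX day 5 and 0.126 to 0.15 in the others. The fit shares 1 variance per probe set over all groups, so its SE does not follow this difference. Replicate 1 of OBX day 5 stood apart: of the 97 carriers it gave the highest or lowest signal of all 15 arrays for 53, against 5 to 19 for any other array. The control arrays and replicates 1 and 2 of OBX day 1 shared one scan day. Replicate 3 of OBX day 1 was scanned on another day with the later OBX groups. Hybridization run 1 held the untreated arrays and sham replicate 1, and run 2 the other sham arrays and OBX day 1 replicates 1 and 2. Run 3 held OBX day 1 replicate 3 and OBX day 5, and run 4 held OBX day 7. No OBX group shared a run with the control it was compared with, nor did OBX days 5 and 7, so run and group cannot be told apart there. With scan day as a block no carrier passed the test at day 5 or day 7, and scan day and those groups cannot be told apart, since only the 1 day-1 array links the 2 scan days. Mature sensory neuron markers (5 of 9 measured, among them Omp and Cnga2) had a summed signal of 111679 to 116340 in sham, 86074.8 to 91763.9 at OBX day 1, 28777.2 to 55158.9 at day 5 and 45478.9 to 51019 at day 7, and 5 of 5 fell at day 5.

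Promoter windows are shown for 3 carriers that the results turn on and that hold a motif searched for: Slc5a1, the carrier that rose on all days, Slc31a1, which rose at day 5 and day 7, and Slc25a15, which fell on both of these days. They are RefSeq windows of GRCm38.p6, from 250 bases before to 50 after the gene's start, 5′ to 3′ on the gene's strand, and capitals mark a motif. In Slc5a1 (chr5:33103969-33104268, plus strand) the capitals are an E-box 143 bases before the start. In Slc31a1 (chr4:62360451-62360750, plus strand) they are a PU.1 site 249 bases before the start. In Slc25a15 (chr8:22398228-22398527, minus strand) they are an E-box 77 bases before the start and 2 matches to the metal response element core.
Slc5a1: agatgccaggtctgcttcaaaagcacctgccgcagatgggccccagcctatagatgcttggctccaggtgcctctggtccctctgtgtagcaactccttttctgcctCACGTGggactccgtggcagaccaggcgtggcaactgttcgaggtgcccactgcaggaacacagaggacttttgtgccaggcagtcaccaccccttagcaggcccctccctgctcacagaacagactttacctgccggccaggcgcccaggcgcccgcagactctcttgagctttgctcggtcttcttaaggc
Slc31a1: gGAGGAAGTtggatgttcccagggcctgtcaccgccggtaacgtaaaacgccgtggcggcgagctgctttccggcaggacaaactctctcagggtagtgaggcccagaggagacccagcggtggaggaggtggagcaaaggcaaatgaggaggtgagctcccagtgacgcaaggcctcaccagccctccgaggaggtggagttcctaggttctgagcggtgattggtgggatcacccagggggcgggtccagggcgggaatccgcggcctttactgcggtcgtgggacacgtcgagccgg
Slc25a15: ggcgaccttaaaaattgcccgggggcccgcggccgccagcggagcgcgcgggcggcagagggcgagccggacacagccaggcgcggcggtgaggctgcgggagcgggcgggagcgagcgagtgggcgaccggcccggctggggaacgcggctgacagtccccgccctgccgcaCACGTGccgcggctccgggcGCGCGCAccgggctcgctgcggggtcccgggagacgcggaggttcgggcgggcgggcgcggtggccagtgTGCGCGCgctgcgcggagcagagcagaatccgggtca
The motifs were searched on both strands. A gene was counted where any of its windows held the motif, over 22 called carriers, 78 measured carriers and 27025 genes with a window. The 27025 include genes not measured in this tissue, so their share is not a matched background for the carriers. No share over measured genes alone was computed. The E-box CACGTG was held by 2 of 22, 12 of 78 and 8.09% of all genes. The PU.1 site GAGGAAGT was held by 2 of 22, Slc31a1 and Slc22a18, by 4 of 78 and by 3.69% of all genes. The metal response element core TGCGCNC was held by 9 of 22, 28 of 78 and 17.0% of all genes. The antioxidant response element core TGACNNNGC was held by 2 of 22, 17 of 78 and 14.0%, and the site of the neuronal factor EBF (TCCC and GGGA, 2 bases apart) by 0 of 22, 1 of 78 and 1.06%. Matches of different motifs overlapped in 0 of the called windows. Slc15a2, which rose as much as Slc5a1, held none of the 5 motifs. Some genes have more than 1 window, and a match is a run of letters, not a bound site.

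At 5 days after OBX, measured carriers shifted in both directions and about as often as other genes. Compared with sham, 14 rose and 8 fell of 97, or 22.7%, against 21.7% of all measured genes (12.5% higher and 9.16% lower). The 14 include Slc11a1 and Slc46a1, which met the filter of 3 present calls only through OBX arrays. The median log2 change was 0.07 in the carriers and -0.00 over all genes, and role medians ran from -0.20 (neurotransmitter carriers) to 0.23 (nucleotide sugar carriers). The 2 groups of 3 arrays did not overlap for 39 carriers (40.2%), against 34.7% of all genes. The fitted change was a factor of 2 or more for 3 carriers, which was 3.09% of them against 3.94% of all genes: Slc46a1, dim in the controls, rose, and Slc4a4 and Slc6a4 fell. Without replicate 1 of OBX day 5 the count was 28, of which 14 were among the 22. Leaving out sham replicate 1, 2 or 3 gave 11, 11 and 12 calls, and 8 carriers passed whichever of the 6 arrays was left out: Slc5a1, Slc15a2, Slc31a1, Slc25a10, Slc25a15, Slc4a4, Slc6a4 and Slc22a23. The share of all genes was not computed for the fits with 1 array left out, so their counts are not results about the carriers.

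The counts of rises and falls past the test at day 5 differed between the 2 control groups. That difference was not itself tested, and sham against untreated called 0 of 97 carriers. Against untreated tissue, OBX day 5 gave 8 rises and 10 falls (18 of 97), against 20.9% of all genes (12.0% higher and 8.9% lower), and 14 of the 18 were among the 22. The carriers past the test against sham but not against untreated were the risers Slc4a2, Slc27a2, Slc22a18, Slc50a1, Slc10a3, Slc39a4 and Slc27a4 and the faller Slc7a6. Their changes against untreated were 0.32, 0.42, 0.23, 0.29, 0.30, 0.44, 0.38 and -0.62 in that order, with adjusted p from 0.0553 to 0.234. Each kept the sign of its change from sham. Carriers past the test only against untreated included the fallers Slc16a7 (-1.17, adjusted p = 0.0358) and Slc12a7 (-0.42, adjusted p = 0.0277). Mitochondrial carriers gave 2 rises and 2 falls against untreated, and 1 rise and 1 fall against sham.

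**Figure D1:**
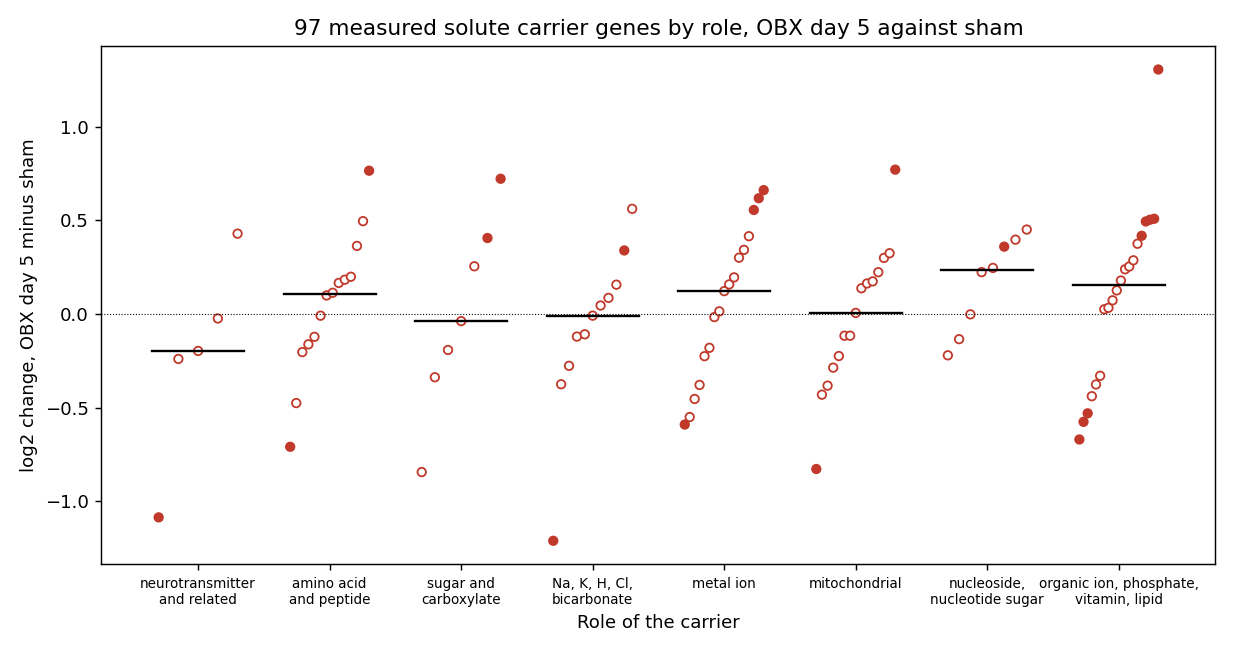
Log2 change of signal between OBX day 5 and sham for the 97 measured carriers, by role on the x axis; each point is a gene (filled where the adjusted p was under 0.05) and each bar a role's median. Filled points lie on both sides of 0 in 5 of the 8 roles, and organic ion, phosphate, vitamin and lipid carriers hold 8 of the 22.

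Sugar carriers included the gene that moved on every day. Slc5a1, the sodium-glucose cotransporter SGLT1, had signals of 1474.7, 1394.5 and 1491.4 in untreated tissue and 1655.6, 1384.2 and 1313.8 in sham. After OBX they were 2511.5, 2275.1 and 2451.3 at day 1, 2688.1, 2258.4 and 2224.4 at day 5 and 2362.7, 1983.1 and 2015.7 at day 7. All 9 OBX arrays lay above all 6 control arrays. The log2 change was 0.73 ± 0.12 (SE, n = 3 and 3; adjusted p = 0.00449) at day 1, 0.72 ± 0.12 (adjusted p = 7.69e-04) at day 5 and 0.54 ± 0.12 (adjusted p = 0.00862) at day 7. It was the only carrier past the test in all 3 comparisons. With scan day as a block, the day 1 change was 0.72 with an adjusted p of 0.0374. That block does not take out the hybridization run, which untreated and OBX day 1 arrays did not share.

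The facilitative glucose carrier Slc2a1 (GLUT1) had its highest signals at day 1. It read 1302, 1432.2 and 1522.5 in untreated tissue and 1930.7, 2055.3 and 2052.2 at OBX day 1, with no overlap. The log2 change of 0.51 ± 0.13 missed the threshold (adjusted p = 0.0502), while OBX day 1 against sham gave 0.56 ± 0.13 and passed (adjusted p = 0.0239), and the test of any difference among the 5 groups gave an adjusted p of 0.0168. At day 7 Slc2a1 stood at 1387.4, 1371.7 and 1334.4, within the range of the controls. Slc2a3 (GLUT3) did not pass at any time, with log2 changes of 0.18, -0.34 and 0.02 at days 1, 5 and 7. Slc50a1, the sugar exporter SWEET1, rose by 0.41 ± 0.13 at day 5 (adjusted p = 0.0392), but by 0.28 without replicate 1 of OBX day 5 (adjusted p = 0.0838). The monocarboxylate carrier Slc16a7 had a change of -0.84 at day 5 against sham that did not pass (adjusted p = 0.116). Against untreated tissue, OBX day 5 gave -1.17 and passed (adjusted p = 0.0358).

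Among 14 amino acid and peptide carriers, 1 rose and 1 fell at day 5. Slc15a2 (PEPT2), which takes up di- and tripeptides with protons, gave 5628.7, 5255.8 and 5660.1 in sham, 4810.6, 5790.6 and 4800.4 at OBX day 1, and 10882.4, 9745.2 and 7744.2 at OBX day 5. Untreated arrays read 5014.5, 4829.7 and 5212.7, and OBX day 7 arrays 7585.4, 9987.3 and 8155.4. Day 1 was at the control level, and every day 5 and day 7 array was above every other array. Slc15a2 rose by 0.76 ± 0.13 at day 5 (adjusted p = 0.00106, 1.70-fold) and by 0.76 ± 0.13 at day 7 (adjusted p = 0.00185), and stood at 0.03 at day 1 (adjusted p = 0.960). OBX day 5 was also above OBX day 1, by 0.87 (adjusted p = 9.52e-04). The difference between the day 5 and day 1 changes, each from its own control, was 0.74 ± 0.19 and missed the threshold (adjusted p = 0.0689).

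Slc7a6, which pairs with Slc3a2 to exchange basic and neutral amino acids, fell by 0.71 on the log2 scale at day 5 (adjusted p = 0.0332). Replicate 1 gave the lowest of its 3 values, 496.2 against 1078.1 and 786.7, and without it the change was -0.41 (adjusted p = 0.0799). The partner Slc3a2 (0.11), the glutamine carrier Slc38a2 (0.36) and the large neutral amino acid carrier Slc7a5 (-0.12) did not pass at day 5. The cystine carrier Slc7a11 was on the array but not tested.

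**Figure D2:**
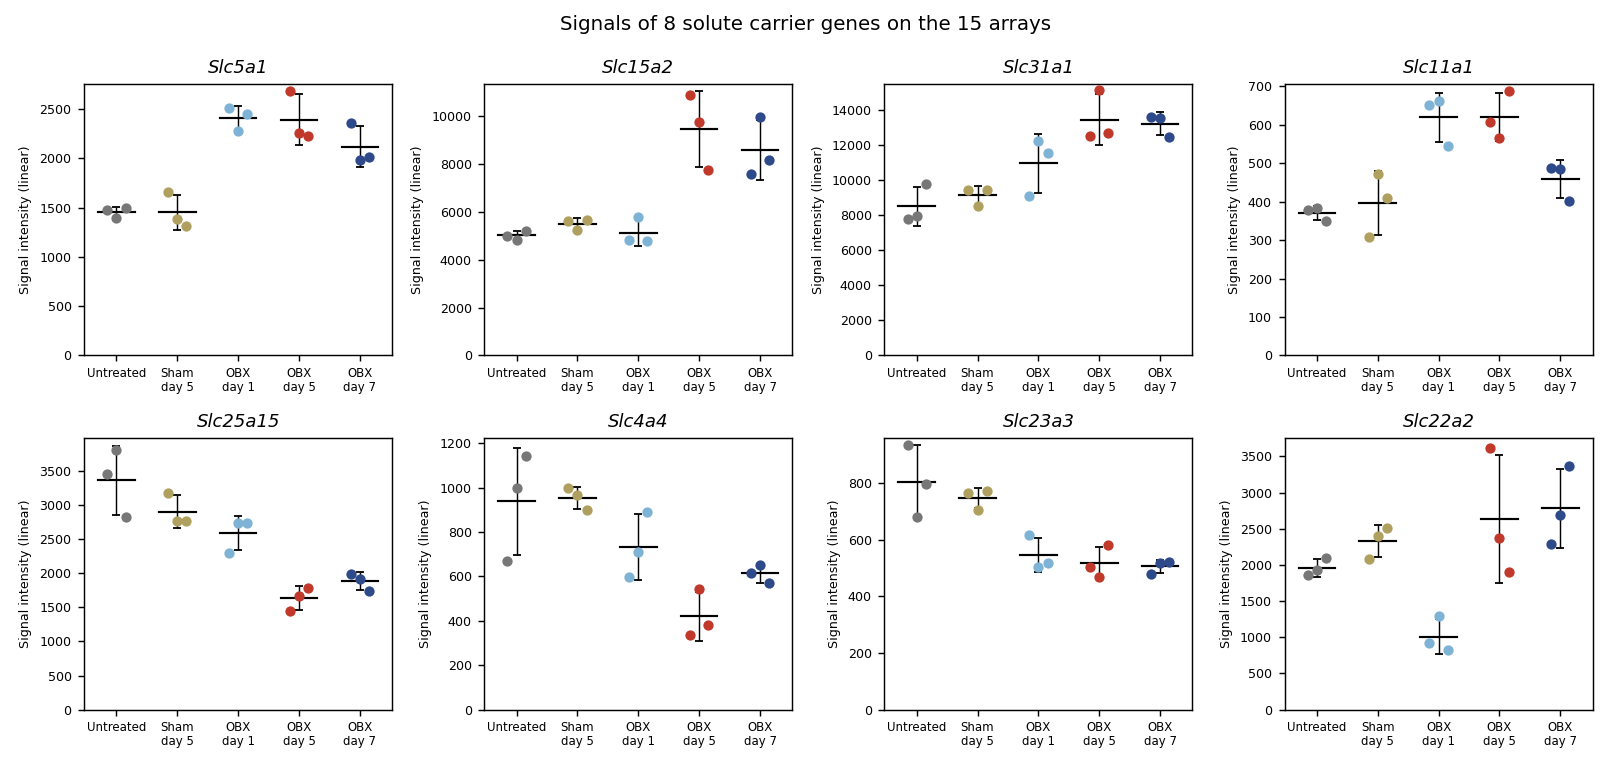
Signal intensity (linear, from 0) of 8 carriers on the 15 arrays, with 3 points per group, the mean as a bar and the SD as an error line. Slc5a1 is raised from day 1, Slc15a2 from day 5 (7585.4 and above at days 5 and 7, against 5790.6 and below at day 1), and Slc22a2 is low only at day 1.

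Carriers of neurotransmitters and related compounds gave 1 call in 5 at day 5. Slc6a4, the serotonin transporter, read 581, 629.9 and 708 in sham and 223.8, 387.4 and 312.7 at OBX day 5, without overlap. It fell by 1.09 on the log2 scale (SE 0.22, adjusted p = 0.00302), and by 0.87 without replicate 1 (adjusted p = 0.00661). At day 7 the signals were 483.4, 510.5 and 521.9, within the untreated range, with a change of -0.06. Its probe set is of the kind shared among related sequences, so the transcript it reads is uncertain, and it was called present on 1 of the 3 day 5 arrays. The taurine carrier Slc6a6, a bright probe set, gave -0.31, -0.02 and -0.30 at days 1, 5 and 7, with no call. The vesicular GABA carrier Slc32a1 was not tested.

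Among 11 carriers of sodium, potassium, protons, chloride and bicarbonate, 1 rose and 1 fell at day 5. Slc4a4 (NBCe1), which moves bicarbonate with sodium, gave 996.3, 965 and 899.9 in sham and 335.6, 544.5 and 381.7 at OBX day 5. The groups were well apart, and OBX day 7 lay between them at 615.9, 652.3 and 570.7. Slc4a4 fell by 1.21 on the log2 scale (SE 0.21, adjusted p = 0.00123), a 2.31-fold drop, and OBX day 5 was below OBX day 1 by 0.81 (adjusted p = 0.0316). The change at day 7 was -0.58 (adjusted p = 0.0893). The anion exchanger Slc4a2 rose by 0.34 at day 5 (adjusted p = 0.0406), and by 0.30 without replicate 1 (adjusted p = 0.0539).

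The chloride loader Slc12a2 (NKCC1) did not pass in any comparison. Its signals were 20351.7, 15906.1 and 18989.5 in sham and 9543.4, 18040.1 and 16361.1 at OBX day 5, where replicate 1 alone was low. The change was -0.38 ± 0.18 at day 5 (adjusted p = 0.153), 0.08 at day 1 and -0.07 at day 7. At OBX day 7 Slc12a2 read 17081.2, 17549.3 and 17115, within the control range. The summed mature neuron markers were lower in every day 7 array than in every control array. Any link between them was not tested, and the cells that gave the Slc12a2 signal were not told apart. The potassium-chloride cotransporter Slc12a7 gave -0.28 at day 5 against sham with no call, and -0.42 against untreated tissue, which passed (adjusted p = 0.0277). The erythrocyte anion exchanger Slc4a1 gave changes of -0.04, -0.01 and -0.04 at days 1, 5 and 7.

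Metal carriers gave 3 rises and 1 fall among 17 at day 5. Slc31a1 (CTR1), the copper importer, read 9442.2, 8520 and 9411.8 in sham and 12517.2, 15120.2 and 12688.9 at OBX day 5. Untreated tissue gave 7769, 7941.7 and 9803.6 and OBX day 7 13611.7, 13572.3 and 12484.7. All 6 later OBX arrays exceeded all 6 control arrays, and day 1 overlapped the controls. Slc31a1 rose by 0.56 ± 0.13 at day 5 (adjusted p = 0.00621) and by 0.64 ± 0.13 at day 7 (adjusted p = 0.00409). A dimmer probe set of the same gene gave 0.12 and 0.14 and did not pass, so the 2 probe sets disagree.

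Slc11a1 (NRAMP1), a divalent metal transporter of phagosomes in macrophages and neutrophils, was called present on 0 of 6 control arrays and on all 3 arrays at day 1 and at day 5. Slc11a1 thus met the filter of 3 present calls only through OBX arrays, so the filter and its tests drew on the same arrays. It read 379.3, 383.3 and 349.2 in untreated tissue, 651.1, 660.8 and 545.3 at OBX day 1, and 607.2, 564.7 and 688.2 at OBX day 5. Sham arrays gave 308.8, 472.7 and 408.9. The log2 change was 0.74 at day 1 (adjusted p = 0.0333) and 0.66 at day 5 (adjusted p = 0.0132). The control signals were not above background, so the ratios of mean log2 signals are bounds, at least 1.67-fold and at least 1.58-fold, that leave out sampling error. Day 1 lost the call when any 1 of the 6 arrays was left out (0.69 to 0.82), and day 5 when sham replicate 1 was (0.49, in a range of 0.49 to 0.80). Macrophage markers (6 of 6 measured) summed to 12290.4 to 14610.4 in sham and 23683.3 to 24998.7 at OBX day 5. There 4 of 6 rose, and Cd68 (0.43) and Cd14 (0.04) did not pass. The macrophage sum was 11320.9 to 13338.1 in untreated tissue and 15698.8 to 16102 at OBX day 1, where 1 of 6 rose. Neutrophil markers (6 of 6) summed to 22932.4 to 30858.6 in sham and 39828.6 to 45483.7 at OBX day 5. The neutrophil sum was 19938 to 30584.8 in untreated tissue and 29999.2 to 35021.7 at day 1, where 1 of 6 rose. The neutrophil markers that rose at day 5 were Ltf (1.71, from a mean of 5981.23 in sham to 19802.7) and Mmp9 (0.57), and S100a8 (0.17), S100a9 (-0.13), Camp (0.12) and Ngp (0.21) did not pass. Their part in the Slc11a1 signal was not tested.

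The zinc importers of the Slc39 family went both ways. Slc39a4 (ZIP4) rose by 0.62 ± 0.19 at day 5 (adjusted p = 0.0304), from 1143.8, 1215.2 and 1091.7 in sham to 2090.9, 1595.9 and 1643.3, though untreated replicate 1 reached 1674. Without replicate 1 of OBX day 5 its change was 0.49 (adjusted p = 0.0711). Slc39a3 (ZIP3) read 1298, 1213.8 and 1355.3 in sham and 1206.8, 741.5 and 699.1 at OBX day 5, so replicate 1 was close to sham. It fell by 0.59 at day 5 (adjusted p = 0.0311), by 0.84 without that array (adjusted p = 3.47e-04), and by 0.67 at day 7 (adjusted p = 0.0251). The day 5 call was lost when any other of the 6 arrays was left out, with changes down to -0.45. It was also lost with quantile normalization (adjusted p = 0.0519). Slc39a1 (ZIP1) did not pass at any time, with 0.12 at day 5. The difference between Slc39 genes was not itself tested.

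Mitochondrial carriers showed 1 rise and 1 fall among 15 at day 5. Slc25a15 (ORNT1), which exchanges ornithine and citrulline in the urea cycle, gave 3181.2, 2761.9 and 2760 in sham and 1450.8, 1672.1 and 1787.9 at OBX day 5. At OBX day 7 it gave 1995.6, 1916.5 and 1744.5, against 3452.8, 3814.8 and 2820.9 in untreated tissue. All 6 OBX arrays of days 5 and 7 lay below all others, and the day 1 arrays (2298.7, 2744.3 and 2731.5) lay below all controls. Slc25a15 fell by 0.83 on the log2 scale at both times (SE 0.13; adjusted p = 5.74e-04 at day 5 and 9.81e-04 at day 7). It had the smallest adjusted p of the carriers in each of these comparisons.

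Slc25a10, the dicarboxylate carrier, rose by 0.77 ± 0.18 at day 5 (adjusted p = 0.00744). Its signals were 1668.9, 1949 and 1425.4 in sham and 3721.4, 2567 and 2408.6 at OBX day 5, with replicate 1 highest, and the rise was 0.58 without it (adjusted p = 0.0156). The ADP/ATP carriers differed by little: Slc25a5, whose probe set is shared among related sequences, gave -0.29 at day 5 (adjusted p = 0.0531) and fell by 0.39 at day 7 (adjusted p = 0.0198), and Slc25a4 gave 0.17 and 0.13 with no call. Slc25a28, a mitochondrial iron importer, passed only between OBX days, at -0.44 for day 5 minus day 1 (adjusted p = 0.0344).

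Among 8 nucleoside and nucleotide sugar carriers, 1 rose. Slc35b1, which carries nucleotides across the endoplasmic reticulum membrane, read 5928.2, 6964.3 and 5175.9 in sham, 7599.9, 7978.7 and 7439.6 at OBX day 5 and 8230.5, 7889.9 and 8137.2 at OBX day 7. Every OBX array of the 3 days exceeded every control array, since the lowest was 7068 at day 1. It rose by 0.36 ± 0.10 at day 5 (adjusted p = 0.0235) and 0.45 ± 0.10 at day 7 (adjusted p = 0.0114). The day 1 value was 0.34 (adjusted p = 0.121). Slc35b2, which carries the sulphate donor PAPS into the Golgi, gave 0.45 at day 5 and did not pass, nor did Slc35d1, a carrier of UDP-sugars, at 0.22.

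Of 20 carriers of organic ions, phosphate, vitamins and lipids, 5 rose and 3 fell at day 5. Slc46a1 (PCFT), the proton-coupled folate transporter, rose by 1.31 ± 0.40 (adjusted p = 0.0317). Its signals were dim, 261, 94.1 and 323 in sham and 730.2, 496.6 and 330.1 at OBX day 5, and it was called present on 0 of the 6 control arrays and 2 of 3 at day 5. Slc46a1 too met the filter of 3 present calls only through OBX arrays. Since sham was not above background, the ratio of mean log2 signals is a bound, at least 2.47-fold, that leaves out sampling error. With 1 of the 6 arrays left out the change ran from 0.76 to 1.65, and the call was lost without sham replicate 2, OBX day 5 replicate 1 (1.02, adjusted p = 0.0867) or OBX day 5 replicate 2.

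The fatty acid carriers and activating enzymes Slc27a2 and Slc27a4 rose at day 5, by 0.51 (adjusted p = 0.0323) and 0.50 (adjusted p = 0.0275). Slc27a2 read 7166.9, 5547.2 and 6253 in sham and 8226, 11096.9 and 7833.2 at OBX day 5, with every OBX array of the 3 days above every control array. Slc27a4 read 862.5, 751.4 and 759.8 in sham and 1327.8, 885.8 and 1191.6 at OBX day 5, and 797, 819.6 and 890.1 at day 7, back within the control range. Slc22a18 and Slc10a3, both orphan carriers, rose by 0.42 (adjusted p = 0.0386) and 0.49 (adjusted p = 0.0270), but neither passed against untreated tissue (0.23, adjusted p = 0.234, and 0.30, adjusted p = 0.157). Without replicate 1 of OBX day 5, Slc27a4 (0.38, adjusted p = 0.0647), Slc22a18 (0.26, adjusted p = 0.0797) and Slc10a3 (0.33, adjusted p = 0.0598) no longer passed, and Slc27a2 did (0.57, adjusted p = 0.0206).

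The carriers of this role that fell were Slc22a23, Slc22a17 and Slc23a3. Slc22a23, an orphan of the organic ion family that is named for its sequence, read 2011.3, 1384.2 and 1652.1 in sham and 1000.7, 1221.4 and 934.1 at OBX day 5, a change of -0.67 ± 0.16 (adjusted p = 0.00743). Slc22a17, reported as a receptor for lipocalin 2, read 4180.6, 5195.2 and 3980.7 in sham, 3438.4, 2784.2 and 2726.1 at OBX day 5 and 3100.5, 2822 and 3050.4 at OBX day 7. It fell by 0.58 at day 5 (adjusted p = 0.0321) and by 0.65 at day 7 (adjusted p = 0.0262), and its day 5 and day 7 arrays lay below all control arrays. Slc23a3, an orphan of the ascorbate carrier family, read 763.2, 705.2 and 769.8 in sham, 504.8, 469.2 and 580.4 at OBX day 5 and 478, 516.4 and 522.6 at day 7. Slc23a3 fell by 0.53 (adjusted p = 0.0187) and 0.66 (adjusted p = 0.00895), while its dimmer probe set gave -0.02 and 0.01, so the 2 disagree.

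At day 1 after OBX, few carriers had changed. Compared with untreated tissue 2 rose and 1 fell of 97 (3.09%), against 2.63% of all genes (1.93% higher and 0.697% lower). The risers were Slc5a1 and Slc11a1, described above, and Slc11a1 met the detection filter only through OBX arrays. The faller was Slc22a2 (OCT2), a polyspecific organic cation carrier. Groups did not overlap for 27 carriers (27.8%), against 28.5% of all genes. With estimated array weights the count was 11 of 97, against 13.7% of all genes.

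Slc22a2 gave 1857.3, 1926.9 and 2091 in untreated tissue, 2083, 2397.1 and 2513.9 in sham and 921.8, 1288.3 and 819.6 at OBX day 1. It gave 3613.3, 2374.5 and 1900.4 at OBX day 5 and 2289.3, 2686.5 and 3371.4 at OBX day 7. Day 1 lay below every other array, and days 5 and 7 lay within or above the control range. Slc22a2 fell by 0.98 ± 0.22 on the log2 scale at day 1 (adjusted p = 0.0269). OBX day 5 was 1.36 above OBX day 1 (adjusted p = 0.00141), and the difference between the 2 changes from control was 1.11 ± 0.31 (adjusted p = 0.0962). The 2 day 1 arrays scanned on the day of the untreated arrays gave -0.84 (adjusted p = 0.155 with scan day as a block). The day 1 call held without OBX day 1 replicate 2 and was lost without any other of the 6 arrays, with changes of -1.17 to -0.84.

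At 7 days after OBX, 4 carriers rose and 5 fell of 97 (9.28%), against 13.6% of all genes (7.47% higher and 6.17% lower). The risers were Slc15a2, Slc31a1, Slc5a1 and Slc35b1, and the fallers Slc25a15, Slc39a3, Slc23a3, Slc22a17 and Slc25a5. Of these 9 genes, 8 had also passed at day 5 (88.9% of the day 7 list and 36.4% of the day 5 list), the exception being Slc25a5. Groups did not overlap for 39 carriers (40.2%), against 42.6% of all genes. Whichever of the 6 arrays was left out, Slc15a2, Slc31a1, Slc35b1, Slc25a15 and Slc23a3 passed. Slc39a3 passed in 1 of the 6 such fits (-0.76 to -0.59), Slc22a17 in 2 (-0.74 to -0.52), Slc25a5 in 3 (-0.45 to -0.30) and Slc5a1 in 5 (0.46 to 0.59, lost without OBX day 7 replicate 1). For these fits too the share of all genes was not computed. With estimated array weights the count was 30 of 97, against 30.8% of all genes. No carrier changed by a factor of 2 or more at day 7, against 3.38% of all genes.

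**Figure D3:**
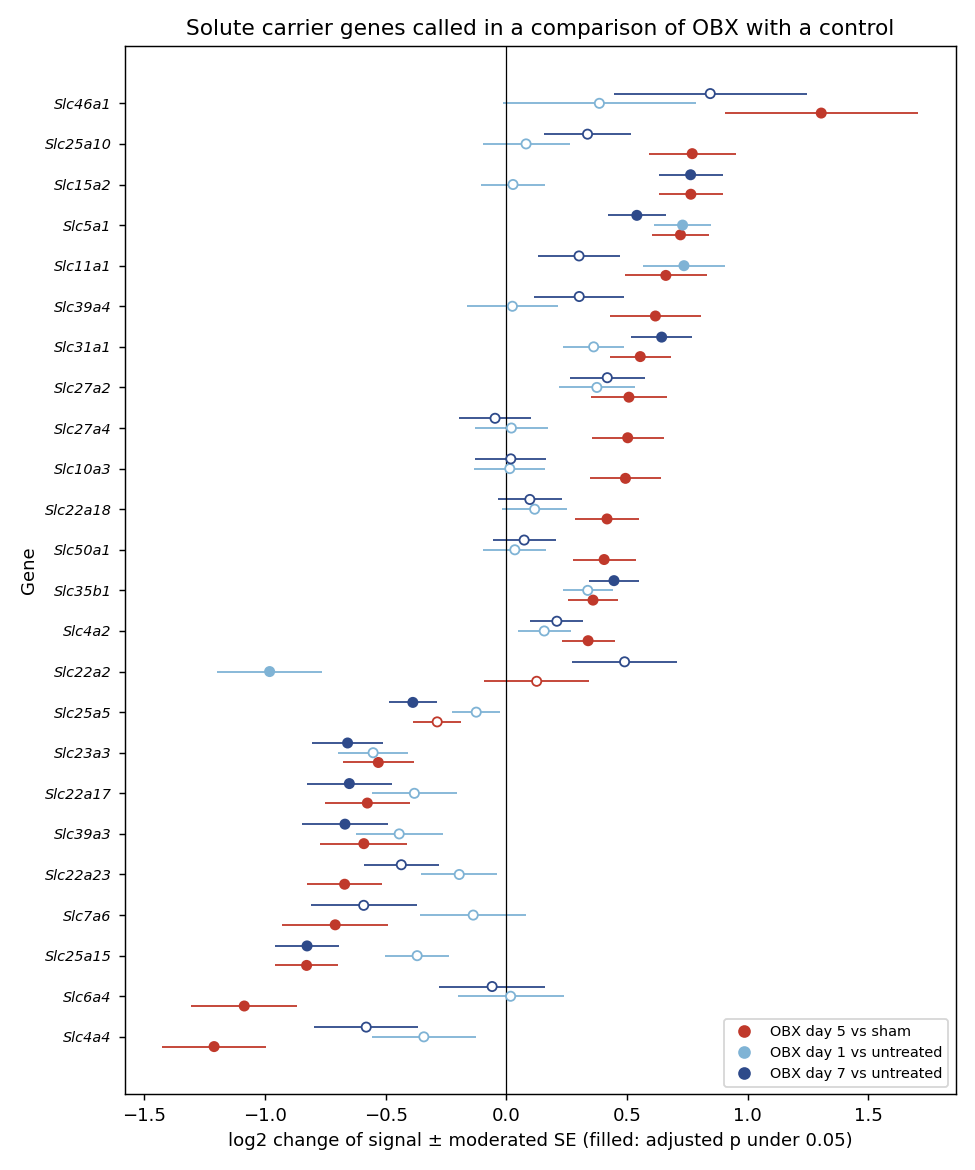
Log2 change with its moderated SE for the 24 carriers past the test in at least 1 comparison of OBX with its control; red is day 5 against sham, light blue day 1 against untreated, dark blue day 7 against untreated, and filled points had an adjusted p under 0.05. Slc5a1 is filled in all 3, and Slc22a2 is filled only at day 1, to the left of 0.

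The day 5 and day 7 changes use different arrays and different controls. Across the 97 carriers they correlated with Pearson's r = 0.773, against 0.731 across all 5740 genes. Genes are not independent replicates, and in both comparisons the OBX arrays were scanned on the later day. Of the 22 carriers called at day 5, 21 had the same sign at day 7 (95.5%), against 98.3% of all genes called at day 5. The exception was Slc27a4, at -0.05 at day 7. At day 1 also 21 of 22 had the same sign (95.5%), against 85.2% of all genes called at day 5, and the exception was Slc6a4.

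**Figure D4:**
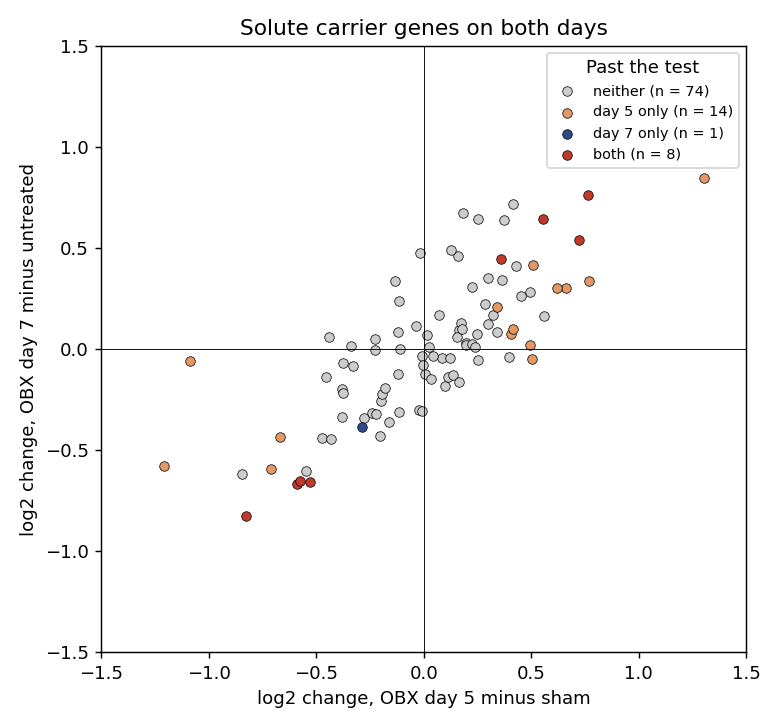
Log2 change at OBX day 7 against untreated (y axis) by that at OBX day 5 against sham (x axis) for the 97 carriers, coloured by which test they passed. The 8 carriers past both tests lie at the lower left and upper right, and r over all points is 0.773.

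Direct comparisons of the OBX days gave few calls. Between day 5 and day 1, 2 carriers were higher at day 5 and 5 were lower, of 97, against 8.24% of all genes (4.29% higher and 3.95% lower). Groups did not overlap for 22 carriers, against 24.8% of all genes. The higher ones were Slc22a2 and Slc15a2, and the lower ones Slc25a15, Slc4a4, Slc6a4, Slc25a28 and the creatine carrier Slc6a8 (-0.46, adjusted p = 0.0445). Between day 7 and day 5, limma called 0 carriers (0.0% of all genes), with 6 at an unadjusted p under 0.05, and groups did not overlap for 7, against 10.2% of all genes. The test of the difference between the day 5 and day 1 changes from control also called 0 of 97 (1.59% of all genes), and that between the day 7 and day 5 changes 0 of 97 (0.0%). The test of any difference among the 5 groups called 18 of 97, against 20.1% of all genes.

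The sham operation left no call among the carriers. Sham day 5 against untreated gave 0 of 97 by limma (0.0% of all genes), with 0 carriers at an unadjusted p under 0.05. Groups did not overlap for 9 carriers, against 7.68% of all genes.

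Transporters that are not of the SLC series were set beside them by symbol lists. Among 6 sodium pump genes 2 rose at day 5 against sham, the regulators Fxyd3 (0.74) and Fxyd5 (0.82). Among 2 calcium pump genes Atp2a2 (SERCA2) fell by 0.73 and Atp2a3 (SERCA3) rose by 0.56. Of 13 vacuolar proton pump subunits 1 rose (Atp6v0e, 0.73) and 2 fell (Atp6v0a1, -0.84, and Atp6v1a, -0.67). Of 16 ABC transporters 2 rose (the cholesterol exporter Abca1, 0.92, and Abcd3, 0.47) and 2 fell (Abcd2, -1.39, and Abcc1, -0.91), and 0 of 2 Slco carriers passed. The list medians at day 5 were 0.41, -0.08, -0.16, -0.13 and -0.33 in that order, beside -0.00 over all genes. Over all measured genes, 12.5% rose and 9.16% fell at day 5, and the lists are short. Against untreated tissue, Fxyd3 (0.32, adjusted p = 0.174), Atp2a3 (0.20, adjusted p = 0.429) and Atp6v1a (-0.54, adjusted p = 0.102) did not pass at day 5. The other genes named here did. Atp6v1a read 5241.9, 12652.3 and 9637.2 at OBX day 5, with replicate 1 lowest, and the Abcd3 arrays of OBX day 5 and sham overlapped. None of the listed genes passed at day 1, against 2.63% of all genes.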

How the data were processed

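RNA pools from olfactory epithelium were hybridised to 15 arrays in 5 groups of 3, grouped by their titles. What was deposited per probe set is a linear signal intensity, scaled by the authors to a common trimmed mean per array as the values show; per the file headers each comes with a detection p-value and a call of present, absent or marginal. The software is not given in the sources used here. Array values equalled the series table (largest difference 0.0). Probe sets were named from GEO's platform annotation, which can be old: of 12488 probe sets, 10833 had 1 gene, 396 several and 1193 none, and 66 were array controls.

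Signals were floored at 1, which raised 1 value of a tested probe set, and taken to log2. All 7508 probe sets with 3 or more present calls entered a group-means fit in limma 3.58.1 in R 4.3.3 (lmFit, eBayes with a trend; 10 residual and 4.52 prior degrees of freedom), and p-values were adjusted by Benjamini-Hochberg over these probe sets within each comparison, with a threshold of 0.05; counts over all genes use the brightest probe set of each of 5740 genes. Python 3.11.15 and pandas 2.3.3 made the tables. The fit was checked on simulated data. SE is the moderated standard error of a log2 change, and a fold is 2 to its power. A gene absent on every array of a control group has only a bound.

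Named genes were fixed carriers of interest, up to 10 rises and 10 falls per comparison that passed, had 3 present calls in the higher group and did not overlap, up to 3 per role by the F test, and genes whose probe sets disagree; other carriers named, among them Slc46a1, were chosen after their values were seen. The members, roles and lists were chosen with earlier results of these data known. The number of arrays limits the precision. Deviations of same-numbered arrays from their group means correlated at -0.347 to 0.371. Only for OBX day 5 against day 1 were all 3 pairs over 0.1 (0.181, 0.129 and 0.101); the labels name no shared litter or day, and with the replicate block the same 7 carriers passed there. Alternatives tried were the normalization, the filter, the floor, array weights, the trend, blocks, the control group and leaving out each array.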

Additional observations from a re-analysis of the deposited data

How the results depend on the processing

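The day 5 count of 22 called carriers became 24 with quantile normalization, 18 with no filter on detection, and 21 with the replicate block, whose numbers do not pair the arrays of these groups. Array weights (weight 0.0693 for OBX day 5 replicate 1) gave 38 calls at day 5, 11 at day 1, 30 at day 7, 11 between days 5 and 1 and 48 for any difference. Under these weights the share of carriers called was 39.2%, 11.3% and 30.9% at days 5, 1 and 7, against 32.9%, 13.7% and 30.8% of all genes. Scan day as a block gave 0, 1, 0, 2 and 1 in the same order. Only the arrays compared, with the variance fitted on those arrays alone, gave 6 at day 5, 6 at day 1, 21 at day 7 and 0 between days 5 and 1. Which day had the most calls thus depended on sharing the variance over the groups. Untreated and sham arrays as 1 control group, chosen after seeing the data, gave 7 at day 1 and 20 at day 7. At day 5 each of the 22 carriers still passed with that control. Quantile normalization gave 1 call for the difference between the day 5 and day 1 changes. For these settings other than array weights the share of all genes called was not computed, so the counts are not results about the carriers.

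Leaving out 1 array gave 11 to 28 calls at day 5, 1 to 2 at day 1, 6 to 9 at day 7, 3 to 11 between days 5 and 1, 12 to 34 for any difference and 0 to 2 for the difference between the day 5 and day 1 changes; sham against untreated, day 7 against day 5 and the other difference stayed at 0. At day 5, 14 of the 22 calls were each lost in 1 to 5 of these 6 fits. The share of all genes called was not computed with 1 array left out. None of the changes called at days 1, 5 and 7 turned its sign when 1 array was left out. Uncalled changes near 0 did, such as Slc4a1 at day 5 (-0.01, and 0.11 without OBX day 5 replicate 3) and Slc2a3 at day 7 (0.02, and -0.07 without OBX day 7 replicate 3). The causes were not tested.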
